A study of Mus musculus with 48 samples.

Results

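The Bcl2 family was followed here through 10 genes that weigh survival against apoptosis: the survival genes Bcl2, Bcl2l1, Bcl2l2 and Mcl1, the pore-forming death effectors Bax and Bak1, and the BH3-only death genes Bid, Bcl2l11, Bad and Bbc3. Members were taken by gene symbol from the annotation of the Illumina MouseWG-6 v2 array. That gave 22 probes of 9 genes, out of 46174 probes and 22451 annotated genes. Bax had no probe under its symbol and was not analysed here.

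The arrays measured mRNA in primary cultures of C57BL/6J mouse striatum, 1 set of astrocytes and 1 of neurons. Each cell type was exposed for 4 h to dexamethasone (100 nM), to aldosterone, progesterone, 5α-dihydrotestosterone or β-estradiol (each 200 nM), or to ethanol vehicle. These 6 treatments and 2 cell types made 12 groups, each labelled with 4 biological replicates, 1 array per replicate. The astrocytes were taken from postnatal pups, selected with magnetic beads against the glutamate transporter GLAST and grown in serum, whereas the neurons were taken from embryos. Both stood in unsupplemented medium on the day before treatment. Age, isolation and medium therefore cannot be told apart from cell type in any difference between the cultures. The same holds for the array chip if each chip held 1 cell type. That layout was inferred by matching arrays between 2 deposited tables and is not given by the labels.

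The neuron arrays labelled vehicle 3 and dexamethasone 3 went against their labels and were left out. Over 12 known glucocorticoid receptor target genes, the mean log2 intensity was 9.35 on the array labelled dexamethasone 3 and 9.86 to 10.00 on the other dexamethasone neuron arrays. It was 9.97 on the array labelled vehicle 3 and 9.12 to 9.17 on the other vehicle neuron arrays. This left 46 arrays, 24 of astrocytes and 22 of neurons, with 3 arrays each for dexamethasone and vehicle in neurons and 4 in every other group.

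The labelled cell types were checked against marker lists. The mean log2 intensity over 10 astrocyte markers was 13.04 to 13.53 on the astrocyte arrays and 11.24 to 11.72 on the neuron arrays. Over 11 neuron markers it was 8.53 to 8.79 on astrocyte arrays, where 7 of the 11 were dim (mean under 7.5), and 11.16 to 11.43 on neuron arrays. On neuron arrays 3 of the 11 were dim as well (Snap25, Gad2 and Nefl), so these do not separate the cell types. Markers of microglia were bright in the astrocyte cultures. Their mean over 11 genes was 11.60 to 11.98 on astrocyte arrays, with only Ptprc of the 11 dim, against 8.57 to 9.42 on neuron arrays. All values below are log2 intensities of 1 probe, and since cultures were measured in bulk, fewer cells of a type and less RNA per cell cannot be told apart.

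Proteins of this family meet at the outer membrane of the mitochondrion. Bax and Bak1 open that membrane, which releases cytochrome c and starts the caspase cascade. Bcl2, Bcl-xL (the long product of Bcl2l1), Bcl-w (Bcl2l2) and Mcl1 hold the effectors in check, and the BH3-only proteins Bid, Bim (Bcl2l11), Bad and Puma (Bbc3) bind the survival proteins or act on the effectors. Glucocorticoids such as dexamethasone are known to kill lymphocytes, where Bim takes part, and to protect several other cell types from apoptosis. Their receptor binds DNA at response elements whose half-site reads TGTTCT.

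Stretches just before annotated start sites of Bcl2l1 and Bcl2 are shown because these survival genes moved in opposite directions in dexamethasone-treated astrocytes. The sequences were taken from RefSeq (GRCm38.p6) and read 5′ to 3′ on the minus strand, the strand of both genes, with CpG dinucleotides in capitals. For Bcl2l1 (chr2:152758732-152833803) the 30 bases before each of 3 annotated starts are given, and all of them lie within the annotated gene:
Bcl2l1 (chr2:152831729-152831758): gatgccagtccctttctggCGCGcactcct
Bcl2l1 (chr2:152830718-152830747): catacctcCGggagagttctcctgactccc
Bcl2l1 (chr2:152828490-152828519): gcagaggctgacacaatgagtgctttttct
Bcl2 (chr1:106538176-106714290) had 1 window, which ends at the base before the gene:
Bcl2 (chr1:106714291-106714540): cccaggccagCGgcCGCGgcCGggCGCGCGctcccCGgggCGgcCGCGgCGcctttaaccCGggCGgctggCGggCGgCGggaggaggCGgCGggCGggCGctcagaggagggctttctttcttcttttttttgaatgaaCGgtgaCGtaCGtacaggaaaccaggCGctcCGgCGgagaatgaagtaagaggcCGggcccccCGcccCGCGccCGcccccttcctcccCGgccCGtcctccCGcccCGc
The Bcl2 window had 74.8% G and C and 36 CpG, whereas the median over 32851 promoter windows of the same length was 52.4% G and C and 6 CpG. The windows that end at the 3 Bcl2l1 starts, at full length, had 47.6% to 53.2% G and C and 0 to 12 CpG. The letters TGTTCT, searched on both strands, were found in 0 of the 16 windows of the 10 genes and in 16.1% of all windows.

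Dexamethasone raised the survival gene Bcl2l1 in astrocytes on each of its 3 probes, by 2.43-, 2.39- and 2.16-fold, and lowered the survival gene Bcl2 (0.624-fold) and the death gene Bid (0.685-fold). The other 6 members measured did not pass the threshold, a false discovery rate of 0.01 in limma's moderated test over all probes. In all, 5 of 22 member probes passed, 3 higher and 2 lower, where 3.55% of all probes did (1.95% higher and 1.60% lower). That share includes many dim probes. With dim probes (highest group mean under 7.5) left out, 17 of 22 member probes and 20565 of all probes stayed. Of those 20565 probes 1744 were called. The 3 higher probes belong to 1 gene and are not separate cases. The median log2 fold change was 0.0088 over the member probes and -0.0075 over all probes. The methods' t-test called 1 of these 5 probes, the second of Bcl2l1, and gave the others adjusted p-values of 0.0125 and 0.0369 (Bcl2l1), 0.103 (Bcl2) and 0.066 (Bid).

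Bcl2l1, which encodes Bcl-xL, gave the largest change of the family. Its brightest probe read 11.63, 11.78, 11.81 and 11.58 in dexamethasone astrocytes, against 10.20, 10.67, 10.60 and 10.21 in vehicle astrocytes (arrays 1 to 4). The groups did not overlap. The log2 fold change was 1.28 ± 0.11 (SE; 95% interval 1.05 to 1.51; limma adjusted p = 2.26e-12).

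The other Bcl2l1 probes gave the same direction. The second probe read 9.66, 9.82, 9.75 and 9.70 in dexamethasone astrocytes, against 8.46, 8.43, 8.61 and 8.41 in vehicle astrocytes. The third read 9.63, 9.28, 9.60 and 9.67 in dexamethasone astrocytes, against 8.06, 8.68, 8.59 and 8.41 in vehicle astrocytes. Neither pair of groups overlapped, and the limma adjusted p-values were 5.04e-10 and 5.47e-10. Levels of the 3 probes cannot be set against each other, since probes differ in how they bind, and which Bcl2l1 transcripts each one reads was not examined.

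**Figure D1:**
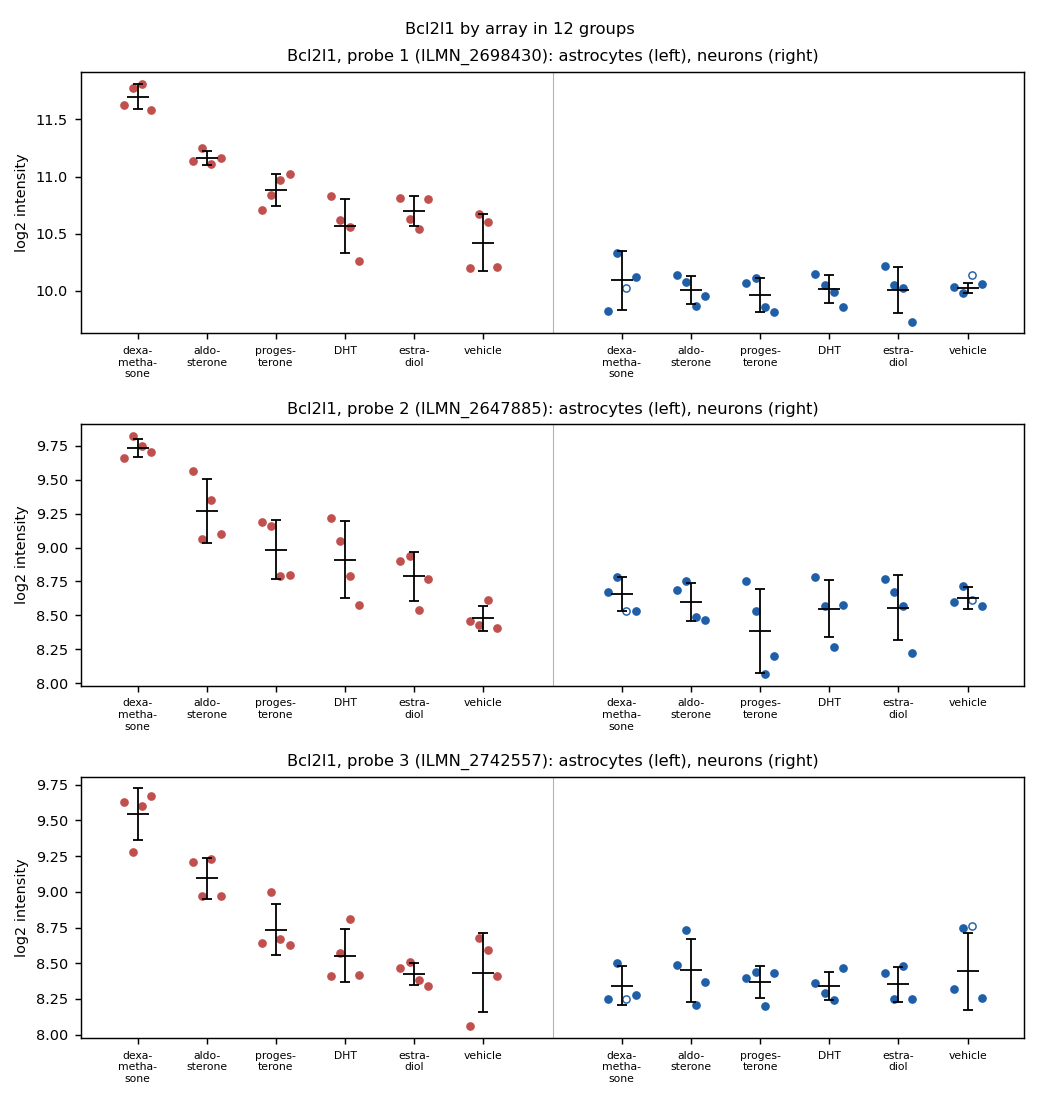
Log2 intensity of the 3 Bcl2l1 probes on every array, 1 panel per probe, with the 6 treatments of astrocytes on the left and of neurons on the right. Dots are arrays, bars are the group mean ± SD, and hollow dots are the left-out neuron arrays. In astrocytes the dexamethasone arrays of the first panel sit between 11.58 and 11.81 and the vehicle arrays between 10.20 and 10.67, while the neuron group means of that probe span 0.13.

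Bcl2, the founding survival member, moved the other way. Its bright probe read 10.17, 10.02, 9.99 and 10.20 in dexamethasone astrocytes, against 10.50, 11.00, 10.99 and 10.61 in vehicle astrocytes. All dexamethasone arrays lay below all vehicle arrays, with a log2 fold change of -0.68 ± 0.15 (SE; limma adjusted p = 0.00237). The call was lost without vehicle array 2 (-0.61, adjusted p = 0.0195) or 3 (-0.61, 0.0183) and without dexamethasone array 2 (-0.66, 0.0107) or 3 (-0.65, 0.0120). The second Bcl2 probe was dim by its mean over the 46 arrays (7.43), with group means of 7.14 to 7.71, and did not pass the test.

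Mcl1, a survival protein with a short half-life, read 13.61, 13.26, 13.57 and 13.81 in dexamethasone astrocytes, against 13.30, 13.15, 13.12 and 13.27 in vehicle astrocytes. The groups overlapped, and the log2 fold change of 0.35 ± 0.12 (SE) did not pass (limma adjusted p = 0.0890). With the replicate number as a block it did (adjusted p = 0.00988). Bcl2l2, which encodes the survival protein Bcl-w, read 12.09, 12.21, 11.94 and 12.01 in dexamethasone astrocytes, against 11.77, 11.97, 11.70 and 11.89 in vehicle astrocytes on its brightest probe, an overlapping difference of 0.23 ± 0.09 (SE; adjusted p = 0.190).

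Among the death genes, Bid passed the test. Bid is cut by caspase 8 and carries the death receptor signal to the mitochondrion. It read 9.14, 8.85, 9.16 and 9.02 in dexamethasone astrocytes, against 9.78, 9.51, 9.55 and 9.51 in vehicle astrocytes. The groups did not overlap, and the log2 fold change was -0.55 ± 0.09 (SE; limma adjusted p = 2.49e-05; 3.41e-05 to 5.75e-04 with each array left out in turn). The second Bid probe was dim and did not pass. It averaged 7.24 ± 0.08 in dexamethasone astrocytes and 7.17 ± 0.06 in vehicle astrocytes (SD, n = 4 each).

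Bcl2l11, the gene of Bim, passed in neither direction. Its brightest probe read 10.10, 9.86, 9.80 and 9.76 in dexamethasone astrocytes, against 10.34, 10.12, 10.36 and 10.00 in vehicle astrocytes, a log2 fold change of -0.33 ± 0.11 (SE; limma adjusted p = 0.0839). Its second probe read 8.29, 8.64, 8.26 and 8.40, against 8.82, 9.07, 8.65 and 8.42 in vehicle astrocytes, a log2 fold change of -0.34 ± 0.14 (SE; adjusted p = 0.171). On both probes the groups overlapped, and the second probe passed with the replicate block (adjusted p = 0.00949).

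Bak1, the effector measured, read 7.49, 7.74, 8.02 and 7.74 in dexamethasone astrocytes, against 7.91, 8.08, 7.86 and 7.61 in vehicle astrocytes, close to the dim range. Its log2 fold change had a 95% interval of -0.39 to 0.15. For Bad, a BH3-only protein that growth factor signaling holds inactive, the interval was -0.23 to 0.11, and for the brightest probe of Bbc3, a p53 target, it was -0.16 to 0.19.

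**Figure D2:**
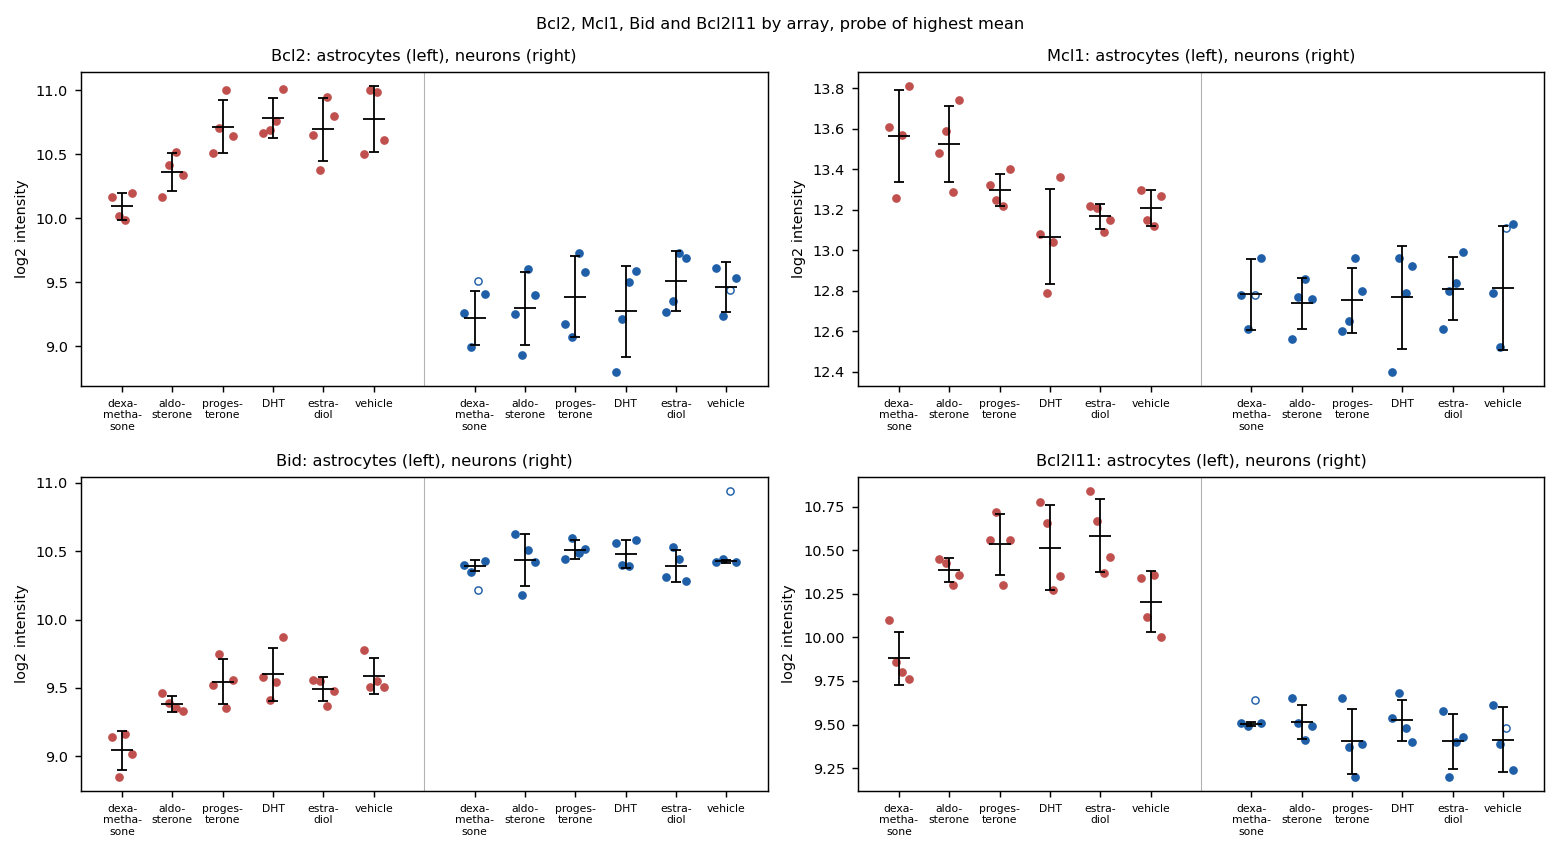
Log2 intensity of Bcl2, Mcl1, Bid and Bcl2l11 (probe of highest mean) on every array, with the treatments of astrocytes on the left of each panel and those of neurons on the right. Dots are arrays, bars the group mean ± SD, hollow dots the left-out neuron arrays. In astrocytes Bcl2 averaged 10.09 and Bid 9.04 with dexamethasone, against 10.78 and 9.59 with vehicle.

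Microglial markers were read beside these changes. Their mean was 11.60 to 11.73 on dexamethasone astrocyte arrays and 11.73 to 11.79 on vehicle astrocyte arrays, and 3 of the 11 passed the test (Cx3cr1 and P2ry12 lower, C1qb higher). The part of these cells in the Bcl2 family results was not tested.

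Aldosterone raised Bcl2l1 in astrocytes on all 3 probes, by 1.68-, 1.73- and 1.58-fold, and moved no other member past the threshold. Thus 3 of 22 member probes passed, all higher, where 0.574% of all probes did (0.472% higher). The brightest Bcl2l1 probe read 11.14, 11.25, 11.11 and 11.16 in aldosterone astrocytes, against 10.20, 10.67, 10.60 and 10.21 in vehicle astrocytes, with a 95% interval of the log2 fold change of 0.52 to 0.97 (limma adjusted p = 2.02e-05). The second probe read 9.56, 9.06, 9.35 and 9.10 with aldosterone and the third 9.21, 8.97, 9.23 and 8.97, and on all 3 probes the aldosterone arrays lay above the vehicle arrays listed before. The adjusted p-values of these 2 probes were 1.47e-04 and 4.29e-04. Under the methods' t-test none of the 3 passed after adjustment (adjusted p of 0.221, 0.195 and 0.395).

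Bcl2 read 10.17, 10.42, 10.52 and 10.34 in aldosterone astrocytes, a log2 fold change of -0.41 ± 0.15 against vehicle (SE; limma adjusted p = 0.278), and the highest aldosterone array overlapped the lowest vehicle array. Bid read 9.46, 9.39, 9.35 and 9.33, all below the vehicle arrays, but the difference of -0.21 ± 0.09 (SE) did not pass (adjusted p = 0.422). Mcl1 read 13.48, 13.59, 13.29 and 13.74, a difference of 0.32 ± 0.12 (SE; adjusted p = 0.308). Microglial markers averaged 11.83 to 11.95 with aldosterone, against 11.73 to 11.79 with vehicle, with 0 of 11 past limma's threshold.

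With progesterone, 0 of 22 member probes passed limma's threshold in astrocytes, where 0.0563% of all probes did. An unadjusted p under 0.05 was found for 5 of them and for 7.44% of all probes. Bcl2l1 read 10.71, 10.84, 10.97 and 11.02 on its brightest probe, all above the vehicle arrays, with a log2 fold change of 0.47 ± 0.11 (SE; adjusted p = 0.116). The second probe read 9.19, 9.16, 8.79 and 8.80, also above all vehicle arrays, with a log2 fold change of 0.51 ± 0.13 (SE; adjusted p = 0.181). With the replicate block the second probe passed (adjusted p = 0.00633).

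Neither dihydrotestosterone nor estradiol moved a member past limma's threshold in astrocytes, where 0 of all probes passed for either. Unadjusted p-values under 0.05 numbered 3 of 22 with dihydrotestosterone (7.31% of all probes) and 5 of 22 with estradiol (6.36%). Bcl2l11 read 10.84, 10.67, 10.37 and 10.46 in estradiol astrocytes, against 10.34, 10.12, 10.36 and 10.00 in vehicle astrocytes, so that its groups did not overlap. Its log2 fold change of 0.38 ± 0.11 (SE) had an adjusted p of 0.530. In dihydrotestosterone astrocytes Bcl2l11 read 10.78, 10.66, 10.27 and 10.35, within reach of the vehicle arrays. The methods' t-test likewise called 0 member probes for progesterone, dihydrotestosterone and estradiol.

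Member probes whose steroid-treated astrocyte arrays all lay on 1 side of all vehicle arrays numbered 5 of 22 under dexamethasone (7.94% of all probes), 4 under aldosterone (4.53%), 3 under progesterone (3.03%), 0 under dihydrotestosterone (2.93%) and 2 under estradiol (2.85%). For dexamethasone these were the 5 called probes, and for aldosterone the 3 of Bcl2l1 and that of Bid. The progesterone probes were 2 of Bcl2l1, higher, and the dim Bcl2 probe, lower, and both estradiol probes were of Bcl2l11.

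**Figure D3:**
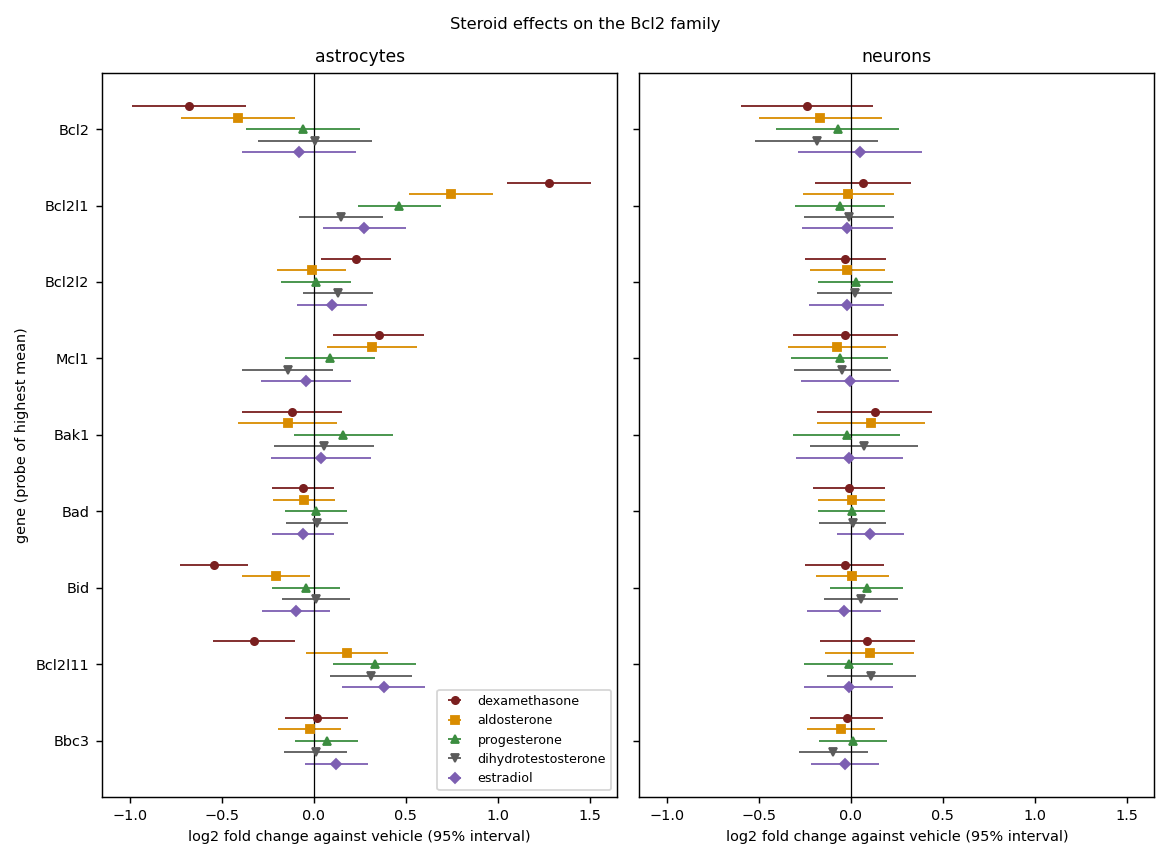
Log2 fold change of each steroid against vehicle for the 9 genes (probe of highest mean), in astrocytes on the left and neurons on the right. Points are estimates and bars their 95% intervals from limma. In astrocytes the Bcl2l1 intervals for dexamethasone, aldosterone, progesterone and estradiol lie above 0 (1.05 to 1.51, 0.52 to 0.97, 0.24 to 0.69 and 0.05 to 0.50), though only the first 2 passed the adjusted threshold, and in neurons every interval includes 0.

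The 4 steroids given at 200 nM were compared with one another in astrocytes, 6 pairs with the adjustment over all probes of each pair. Of these steroids, aldosterone carries an aldehyde group that the other 3 lack, and estradiol an aromatic ring that the other 3 lack. Bcl2l1 was the only member with a call in any pair. Against dihydrotestosterone, aldosterone was higher on 2 of 22 member probes, both of Bcl2l1, where 0.394% of all probes passed (0.312% higher). The log2 differences were 0.60 ± 0.11 (SE; 95% interval 0.37 to 0.82; limma adjusted p = 0.00127) on the brightest probe and 0.54 ± 0.12 (SE; adjusted p = 0.00892) on the third.

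The brightest Bcl2l1 probe read 11.14, 11.25, 11.11 and 11.16 in aldosterone astrocytes, against 10.83, 10.62, 10.56 and 10.26 in dihydrotestosterone astrocytes. These groups did not overlap, but the call was lost without aldosterone array 2 (0.57, adjusted p = 0.0102) or dihydrotestosterone array 4 (0.50, 0.0294). The call on the third probe was lost in 7 of the 8 omissions, all but that of dihydrotestosterone array 3, with adjusted p-values of 0.0117 to 0.0695. For Mcl1 the difference of aldosterone over dihydrotestosterone was 0.46 ± 0.12 (SE; adjusted p = 0.0769; 0.00281 with the replicate block).

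Against estradiol, aldosterone was higher on the third Bcl2l1 probe, 1 of 22 member probes where 0.385% of all probes passed (0.318% higher). The probe read 9.21, 8.97, 9.23 and 8.97 in aldosterone astrocytes, against 8.47, 8.51, 8.38 and 8.34 in estradiol astrocytes, with no overlap and a log2 difference of 0.67 ± 0.12 (SE; 95% interval 0.43 to 0.91; limma adjusted p = 4.16e-04). The other probes gave 0.47 ± 0.11 (adjusted p = 0.0284) and 0.48 ± 0.13 (adjusted p = 0.108), and both passed with the replicate block (0.00711 and 0.00385).

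The remaining pairs gave 0 calls among the member probes by limma and by the methods' t-test. For aldosterone over progesterone 0.156% of all probes passed, and the brightest Bcl2l1 probe differed by 0.28 with a 95% interval of 0.05 to 0.51 (adjusted p = 0.898). Progesterone over dihydrotestosterone gave 0.0260% of all probes and an interval of 0.09 to 0.54 for that probe, progesterone over estradiol gave 0.0217% and an interval of -0.04 to 0.42, and dihydrotestosterone over estradiol gave 0 of all probes and an interval of -0.35 to 0.10. At an unadjusted p under 0.05 the counts in these 4 pairs, in the order given, were 5 of 22 member probes (4.80% of all probes), 1 (3.78%), 2 (3.33%) and 1 (3.61%). Dexamethasone was given at the lower dose and was set only against vehicle.

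Along the treatments of astrocytes the group means of the brightest Bcl2l1 probe were 11.70 ± 0.11 with dexamethasone, 11.16 ± 0.06 with aldosterone, 10.89 ± 0.14 with progesterone, 10.70 ± 0.13 with estradiol, 10.57 ± 0.24 with dihydrotestosterone and 10.42 ± 0.25 with vehicle (SD, n = 4 each). The doses of dexamethasone and aldosterone differ, so these neighbours are not compared. The lowest aldosterone array (11.11) lay just above the highest progesterone array (11.02), and all later neighbours overlapped.

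In neurons no member probe passed the threshold with any steroid. Limma called 0 of 22 member probes with dexamethasone, where 0.117% of all probes passed, 0 with aldosterone (0.00217%), and 0 with progesterone, dihydrotestosterone and estradiol, for which 0 of all probes passed. Unadjusted p-values under 0.05 were found for 2 member probes with progesterone (2.34% of all probes) and 0 with dexamethasone (3.01%), aldosterone (2.36%), dihydrotestosterone (2.35%) and estradiol (2.66%), and the methods' t-test called 0 throughout. Bcl2l1 read 9.82, 10.33 and 10.12 in dexamethasone neurons, against 10.03, 9.98 and 10.06 in vehicle neurons (arrays 1, 2 and 4), with a 95% interval of the log2 fold change of -0.20 to 0.33.

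Bcl2 read 9.26, 8.99 and 9.41 in dexamethasone neurons, against 9.61, 9.24 and 9.53 in vehicle neurons, and its interval of -0.60 to 0.12 overlapped the astrocyte interval of -0.99 to -0.37. Bid read 10.40, 10.35 and 10.43 in dexamethasone neurons, against 10.42, 10.44 and 10.42 in vehicle neurons, with an interval of -0.25 to 0.18. Mcl1 had an interval of -0.31 to 0.25 and Bcl2l11 of -0.17 to 0.35. Groups did not overlap for 1 of 22 member probes with dexamethasone in neurons, the second of Bcl2l11, where 8.07% of all probes did not. The count was 0 with aldosterone (3.69%), progesterone (4.00%) and dihydrotestosterone (3.41%), and 1 with estradiol (3.89%), that of Bad. With all 48 arrays used as labelled, limma called 0 of all probes with dexamethasone in neurons. The methods' t-test was run only without the left-out neuron arrays, and it also called 0 of all probes with dexamethasone in neurons. Astrocyte markers averaged 11.56 to 11.72 on the dexamethasone neuron arrays and 11.28 to 11.36 on the vehicle neuron arrays. Of the 10 markers 2 were called, both higher (Aldoc and Gjb6). Gjb6 averaged 8.98 in dexamethasone neurons and 6.86 in vehicle neurons, and dexamethasone also raised it in astrocytes (log2 fold change 3.59). Of the 10, Aqp4, Aldh1l1 and Sox9 averaged lower in dexamethasone neurons and the others higher. The part of astrocytes in the neuron values was not tested.

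Pairs of the 200 nM steroids in neurons also gave 0 member calls by limma and by the methods' t-test in all 6 comparisons, with 0 to 0.00433% of all probes called. At an unadjusted p under 0.05 the member probes numbered 1 for aldosterone over progesterone (1.72% of all probes), 0 over dihydrotestosterone (2.34%) and 1 over estradiol (2.03%). They numbered 3 for progesterone over dihydrotestosterone (2.27%), 2 for progesterone over estradiol (1.81%) and 1 for dihydrotestosterone over estradiol (2.35%).

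The effect of dexamethasone was tested between the cell types as a difference of differences. For Bcl2l1 the astrocyte effect exceeded the neuron effect by 1.21 ± 0.17, 1.23 ± 0.20 and 1.21 ± 0.18 on the log2 scale (SE; limma adjusted p of 3.14e-06, 6.15e-05 and 8.09e-06). These were the 3 member probes called, of 22, where 1.00% of all probes were (0.682% higher). The Bid effect was lower in astrocytes by 0.51 (difference -0.51 ± 0.14, SE; adjusted p = 0.0463). It was -0.34 (adjusted p = 0.388) with the left-out neuron arrays used as labelled and -0.70 (adjusted p = 0.00193) with these arrays exchanged. The Bcl2 effects differed by -0.44 ± 0.24 (SE; adjusted p = 0.681), so a Bcl2 change particular to astrocytes was not shown.

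The aldosterone effects on Bcl2l1 differed by 0.76 ± 0.17 (SE; 95% interval 0.42 to 1.09; limma adjusted p = 0.0250), 0.82 ± 0.20 (adjusted p = 0.0595) and 0.65 (adjusted p = 0.154). None of the 22 member probes passed here, where 0.119% of all probes did, while 5 reached an unadjusted p under 0.05 (5.71% of all probes). The replicate block brought the first 2 of these probes past the threshold (adjusted p of 0.00781 and 0.00348). Without vehicle astrocyte array 2 the first passed as well (0.84, adjusted p = 0.0074).

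Vehicle-treated astrocytes and neurons differed on at least 1 probe in 6 of the 9 members. By the probe of highest mean 4 genes were higher and 2 lower in astrocytes, where 21.7% of all genes were called higher and 19.3% lower. Astrocytes had more mRNA of Bcl2 and Bcl2l11 on 2 probes each, of Bad and of Bcl2l1 on 1 of 3 probes, and less of Bid and Bbc3. In all 8 of 22 member probes passed, 6 higher and 2 lower in astrocytes, a share of 36.4%, where 32.4% of all probes passed (16.2% in each direction). The share of member probes is therefore near that of the array as a whole, dim probes included. With dim probes (highest group mean under 7.5) left out, 17 of 22 member probes and 20565 of all 46174 stayed. Of those 20565 probes 14153 were called.

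Bcl2 read 10.50, 11.00, 10.99 and 10.61 in vehicle astrocytes, against 9.61, 9.24 and 9.53 in vehicle neurons, a 2.49-fold difference (limma adjusted p = 2.79e-09). The groups did not overlap. Bcl2l11 read 10.34, 10.12, 10.36 and 10.00 in astrocytes, against 9.61, 9.39 and 9.24 in neurons, also without overlap (log2 difference 0.79 ± 0.12, SE; adjusted p = 2.10e-07). Bad read 12.24, 12.12, 12.37 and 12.28 in astrocytes, against 11.55, 11.60 and 11.61 in neurons (0.67 ± 0.09, SE; adjusted p = 1.56e-08). So a survival gene and 2 death genes were higher in the same cultures.

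Bid and Bbc3 stood the other way. Bid read 9.78, 9.51, 9.55 and 9.51 in vehicle astrocytes, against 10.42, 10.44 and 10.42 in vehicle neurons, a difference of -0.84 ± 0.10 on the log2 scale (SE; limma adjusted p = 4.41e-10). Bbc3 read 11.39, 11.28, 11.29 and 11.05 in astrocytes, against 12.02, 12.13 and 12.12 in neurons on its brightest probe (-0.84 ± 0.09, SE; adjusted p = 6.59e-11). The other Bbc3 probes were lower by less and did not pass (-0.16, adjusted p = 0.478, and -0.34, adjusted p = 0.137).

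Calls on the dim Bcl2 probe (0.42 ± 0.13, SE; adjusted p = 0.00743), the second Bcl2l11 probe (0.46 ± 0.15; 0.00947) and the brightest Bcl2l1 probe (0.40 ± 0.12; 0.00683) were less secure. Bcl2l1 lost its call without vehicle astrocyte array 2 or 3 or any of the 3 vehicle neuron arrays (adjusted p of 0.0154 to 0.0481). Bcl2l11 lost that of its second probe in all omissions but that of vehicle astrocyte array 4 (0.0109 to 0.0681), and the dim Bcl2 probe in all but that of vehicle astrocyte array 2 (0.0124 to 0.0444). The other Bcl2l1 probes gave -0.15 (adjusted p = 0.478) and -0.01 (adjusted p = 0.975) under vehicle. The third probe turned to 0.030 with quantile normalization.

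Mcl1 read 13.30, 13.15, 13.12 and 13.27 in vehicle astrocytes, against 12.79, 12.52 and 13.13 in vehicle neurons, and its difference of 0.40 ± 0.13 (SE) fell just short of the threshold (limma adjusted p = 0.0129; 0.00126 without vehicle neuron array 4). Bak1 differed by 0.38 ± 0.15 (SE; adjusted p = 0.0322; 0.00306 without vehicle neuron array 2).

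Over all treatments the arrays of the cell types separated fully for 5 of 22 member probes, the brightest of 5 genes. They did so for 23.1% of all probes, so the share of member probes is again near that of the array, dim probes included. Bcl2 had a lowest, median and highest level of 9.99, 10.62 and 11.01 over 24 astrocyte arrays, against 8.80, 9.38 and 9.73 over 22 neuron arrays. For Bid the levels were 8.85, 9.50 and 9.87 in astrocytes, against 10.18, 10.43 and 10.63 in neurons. Bcl2l11, Bad and Bbc3 also showed no overlap.

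For Bcl2l1 and Mcl1 the ranges met. Bcl2l1 ran 10.20, 10.82 and 11.81 in astrocytes, against 9.73, 10.04 and 10.33 in neurons, and Mcl1 ran 12.79, 13.27 and 13.81 in astrocytes, against 12.40, 12.79 and 13.13 in neurons. With the cell types compared as the mean over the 6 treatments, 19 of 22 member probes passed, 13 higher and 6 lower, where 51.7% of all probes did (25.0% higher and 26.7% lower). Arrays of the same replicate number deviated together, so these p-values over 24 and 22 arrays are too small. In that comparison all 3 Bcl2l1 probes were higher in astrocytes (0.89, 0.46 and 0.42), and the steroid-treated arrays enter it.

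The members also differed in how far their group means spread over the 6 treatments. In astrocytes the spread on the brightest probe was 1.28 for Bcl2l1, 0.70 for Bcl2l11, 0.69 for Bcl2 and 0.56 for Bid, against 0.13, 0.12, 0.29 and 0.12 in neurons, on the log2 scale. The Bcl2l11 spread runs between the dexamethasone mean (9.88 ± 0.15) and the estradiol mean (10.58 ± 0.21; SD, n = 4 each), which lie on opposite sides of vehicle (10.21 ± 0.17). For Mcl1 it was 0.50 in astrocytes and 0.08 in neurons, for Bcl2l2 0.24 and 0.06, for Bbc3 0.15 and 0.11 and for Bad 0.08 and 0.12.

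Bcl2l2 gave different pictures on its probes. Its brightest probe had group means of 11.82 to 12.06 in astrocytes and 11.65 to 11.71 in neurons, and its second 10.73 to 10.89 in astrocytes and 10.80 to 10.95 in neurons. The other 3 were dim by their mean over the 46 arrays (under 7.5), with group means of 6.94 to 7.37 in astrocytes and 7.18 to 7.54 in neurons. Bak1 stayed near the dim level in both cell types, at 7.72 to 8.03 in astrocytes and 7.46 to 7.61 in neurons. The second Bid probe and the 2 dimmer Bcl2l11 probes were dim as well, with group means of 6.74 to 7.40 over both cell types.

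**Figure D4:**
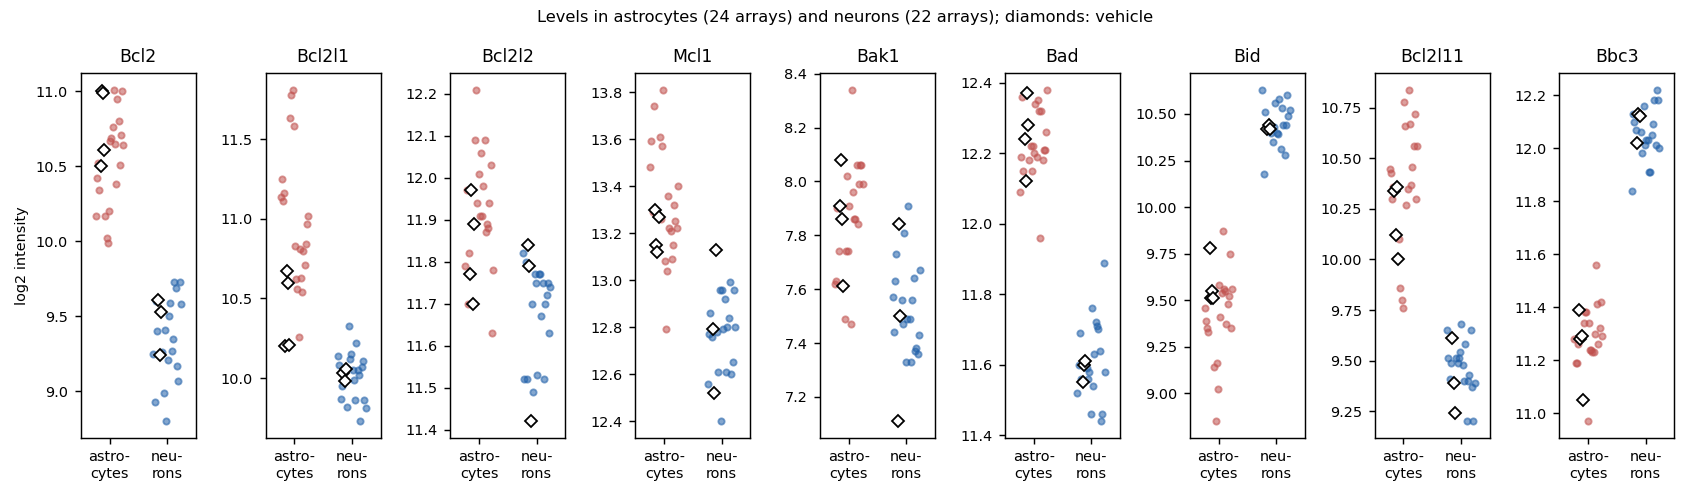
Log2 intensity of the 9 genes (probe of highest mean) on 24 astrocyte and 22 neuron arrays, astrocytes left of neurons for each gene. Dots are arrays and diamonds mark vehicle arrays. The cell types do not overlap for Bcl2, Bad, Bid, Bcl2l11 and Bbc3 (5 of 22 member probes, where 23.1% of all probes do not), and levels of different genes cannot be compared, since each is read by its own probe.

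Other genes of the same pathway were read from lists, each gene by its probe of highest mean. By that rule 2.56% of all genes were called higher and 2.39% lower with dexamethasone in astrocytes. With dexamethasone in astrocytes, 1 of 15 other Bcl2 family genes measured was called, higher, with a list median of 0.065 (log2) beside a median over all genes of -0.007. It was Pmaip1, the BH3-only gene of Noxa, whose probe was dim under vehicle and averaged 7.94 ± 0.20 in dexamethasone astrocytes and 7.31 ± 0.07 in vehicle astrocytes (SD, n = 4 each; limma adjusted p = 2.95e-07), and the other Pmaip1 probes did not pass. Of 18 caspase and apoptosome genes 0 were called in either direction (median -0.014). Of 12 death receptor pathway genes 2 were called, both lower (median -0.034): the adaptor Fadd averaged 10.01 with dexamethasone and 10.45 with vehicle (adjusted p = 0.00208), and the receptor Fas 11.95 and 12.35 (adjusted p = 0.0024). A second Fadd probe passed (limma adjusted p = 1.11e-04). The remaining Fadd probes (0.029 and 0.223) and the other Fas probes (0.0341 and 0.852) did not.

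Regulators of the p53 and FoxO axes, transcription factors and targets that bear on several BH3-only genes, had the most calls of these 4 lists. The lists were chosen with earlier results of these data known, so their ranking is a description and carries no test. Of 10 measured, 6 were higher and 0 lower with dexamethasone in astrocytes, with a median log2 fold change of 0.559. Foxo1 averaged 11.81 in dexamethasone astrocytes and 10.40 in vehicle astrocytes (limma adjusted p = 4.91e-14), Foxo3 averaged 9.33 and 8.04 (5.59e-12), and Cdkn1a, the cell cycle inhibitor p21, averaged 13.81 and 12.61 (1.96e-14). Trp63, Trp53inp1 and Sesn2 were the others called. The other probes of Foxo1 and Foxo3 were dim and did not pass, while those of Cdkn1a did.

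With aldosterone in astrocytes 2 of these 10 genes were called, Foxo1 (log2 fold change 0.70) and Foxo3 (0.54), with a median of 0.253 beside 0.013 over all genes, and 0 in the other 3 lists, where 0.628% of all genes were called higher and 0.156% lower. A dimmer Cdkn1a probe, which these counts do not use, also passed with aldosterone (0.47, adjusted p = 0.00489). With progesterone, dihydrotestosterone and estradiol in astrocytes, and with dexamethasone and aldosterone in neurons, 0 genes of the 4 lists were called by limma. Between vehicle astrocytes and vehicle neurons the calls in these lists went both ways, 5 higher and 4 lower in astrocytes among the other Bcl2 family genes, 5 and 4 among the caspases, 4 and 1 in the death receptor pathway and 6 and 1 among the p53 and FoxO regulators, where 21.7% of all genes were called higher and 19.3% lower. Bok (-1.22), an effector relative, and Hrk (-1.25), a BH3-only gene of neurons, were lower in astrocytes, while Bcl2a1b (2.64), a survival gene of myeloid cells, and Fas (5.15) were higher. Microglial markers differed in the same comparison, 10 of 11 higher in astrocyte cultures with a median log2 difference of 3.181. Oligodendrocyte lineage markers averaged 8.63 to 9.08 on vehicle astrocyte arrays, against 10.41 to 10.48 on vehicle neuron arrays, with 5 of 8 lower in astrocyte cultures. Of 8 fibroblast and mural markers 3 were higher and 1 lower, and of 7 endothelial markers 2 were higher and 1 lower. The part of these cells in the differences between the cultures was not tested.

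Across the 24 astrocyte arrays the probes most like the brightest Bcl2l1 probe were those of Mbd1 (Pearson r = 0.948), Bcat1 (0.945), Per1 (0.940), Tle3 (0.937) and Mertk (0.937). These arrays share their treatments, so the likeness holds mostly the same group differences, and the log2 fold changes of these 5 genes with dexamethasone were 1.99, 3.91, 2.49, 0.83 and 1.51. By the same measure the other Bcl2l1 probes stood at 0.881 each, Mcl1 at 0.595, Bcl2l11 at -0.462, Bcl2 at -0.736 and Bid at -0.829. These correlations are descriptions over 24 arrays and carry no test.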

How the data were processed

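Messenger RNA was read on Illumina MouseWG-6 v2 arrays, and the deposited values are log2 intensities, normalized by the authors and rounded to 2 decimals (their methods name background subtraction and quantile normalization, and which steps gave this table is not stated). They ran from 6.02 to 16.65, with array medians of 7.1 to 7.16, and 61.1% of probes had a mean under 7.5, where changes are hard to tell from background. A deposited non-normalized log2 table was not used for results, since only 1 of its 48 columns lay closest to its own sample. Its column names carry chip identifiers, and going by the closest arrays each of 8 chips held the 6 treatments of 1 number in 1 cell type. Probes took gene symbols from the platform annotation (35725 with 1 symbol, 10449 without).

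Comparisons used limma 3.58.1 under R 4.3.3 (1 fit of 12 group means, 34 residual and 11.4 prior degrees of freedom, no block) at a false discovery rate of 0.01, Benjamini-Hochberg adjusted over 46174 probes within each comparison. The number of arrays limits the precision, and pairs of replicates correlated at r of 0.990 to 0.996 across probes. Tables were made with Python 3.11.15 and pandas 2.3.3. The procedure was tested on simulated data with independent arrays, so that test does not cover arrays of the same number deviating together. Every member probe was named. Of each apoptosis list, the rule names the 3 largest rises and 3 largest falls called with dexamethasone in astrocytes and every gene called with another steroid, and for likeness the 5 probes of highest r. Other list genes named, such as Trp63, Bok, Hrk and Bcl2a1b, were chosen after their values were seen. Members and lists were chosen with earlier results of these data known, and some list genes are not reported here.

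Labels give each array a replicate number, and same-numbered arrays deviated together in all 60 pairs in astrocytes (r of 0.115 to 0.325) and all 51 in neurons (0.13 to 0.564), so the samples count as paired and the replicate block was an alternative. The main fit and the methods' t-test took no account of this pairing, so their errors, intervals and calls within a cell type are those of unpaired groups. Also tried were quantile normalization by cell type, a median shift, leaving out dim probes, separate fits, the methods' t-test (Student's test per probe), all 48 arrays with the left-out neuron arrays as labelled or exchanged, a rate of 0.05, and leaving out each array.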

Additional observations from a re-analysis of the deposited data

Results flagged for a closer look

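In 7 of 90 groups of 4 arrays, 1 array stood apart from the other 3 by Dixon's criterion, which chance meets in about 1 group in 20. Bcl2l2 read 12.09 on estradiol astrocyte array 1 (others 11.87 to 11.89) and 11.53 on dihydrotestosterone neuron array 2 (others 11.75 to 11.77). Bak1 read 8.06 on estradiol astrocyte array 3 (others 7.84 to 7.86), and Bid read 9.78 on vehicle astrocyte array 1 (others 9.51 to 9.55). Bbc3 read 10.97 on dexamethasone astrocyte array 4 (others 11.34 to 11.38), 11.34 on dihydrotestosterone astrocyte array 1 (others 11.23 to 11.24) and 11.91 on dihydrotestosterone neuron array 4 (others 12.01 to 12.03). The dexamethasone effect on Bcl2l1 differed between astrocytes and neurons, by 1.21, 1.23 and 1.21 on the log2 scale over its 3 probes.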

How the results depend on the processing

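The Bcl2l1 rise with dexamethasone kept its direction in every setting run. Of the results for single probes, 310 kept their call and direction, 29 gained a call, 18 lost one and 5 changed sign across the settings other than omissions of an array. Across the omissions 320 kept both, 3 gained a call, 30 lost one and 2 changed sign. The number of arrays and, for dim probes, signal near background limit what can be called, and the causes of the shifts below were not tested.

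Under the methods' t-test 1 member probe was called with dexamethasone and 0 with aldosterone in astrocytes, and 0 for aldosterone over dihydrotestosterone and over estradiol. Over all probes that test called 254 with dexamethasone and 11 with aldosterone, against 1638 and 265 with limma. For aldosterone over dihydrotestosterone and over estradiol it called 12 and 14 of all probes, against 182 and 178 with limma.

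The replicate block called 1 member probe with progesterone in astrocytes, 2 for the difference of the aldosterone effects and 3 for aldosterone over estradiol. Over all 46174 probes it called 71, 113 and 305 in these comparisons, 2507 with dexamethasone and 533 with aldosterone. The block takes out what arrays of 1 number share within a cell type, and whether that comes from culture or chip was not tested. A comparison of cell types needs that spread, so calls of the block there are not read. Otherwise it changed the calls of Mcl1 (dexamethasone, aldosterone over dihydrotestosterone), the second Bcl2l11 probe (dexamethasone) and Bcl2l1 (progesterone, aldosterone), given above, and no other call of a member.

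At a rate of 0.05 the difference of the aldosterone effects had 1 member call (96 of all probes). Aldosterone over estradiol had 2 member calls (260 of all probes). Against vehicle in astrocytes 2482 of all probes were called with dexamethasone and 431 with aldosterone. With all 48 arrays as labelled, the difference of the aldosterone effects had 1 member call (60 of all probes). Aldosterone over dihydrotestosterone had 1 member call with quantile normalization (187 of all probes) and with separate fits (121). It also had 1 with all 48 arrays as labelled (152 of all probes) or exchanged (178).

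The cell types compared as the mean over the 6 treatments gave 19 member calls (23891 of all probes). Leaving out 1 array gave 5 to 7 calls between the cell types (5 without vehicle astrocyte array 3 or vehicle neuron array 1), 0 to 1 for the difference of the aldosterone effects (1 without vehicle astrocyte array 2), 0 to 2 for aldosterone over dihydrotestosterone and 4 to 5 with dexamethasone in astrocytes.

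Between the cell types the second Bcl2l1 probe (-0.15 under vehicle) gave 0.46 as the mean over the 6 treatments. The third (-0.01 under vehicle) gave 0.42 as that mean, 0.030 with quantile normalization, 0.023 with the replicate block and 0.04 with the left-out arrays exchanged, and -0.10 to 0.15 with 1 array left out (0.12 and 0.15 without vehicle astrocyte array 1 and vehicle neuron array 2). None of the values under vehicle passed the test.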
